A study of Mus musculus with 2 samples.

Results

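The cells described here were the Car4-positive cells of bone marrow cultures that generate myeloid-derived suppressor cells (MDSC). They were barcodes with at least 1000 UMIs (unique molecular identifiers, each counting 1 captured RNA molecule) and at most 10% mitochondrial UMIs that held at least 2 Car4 UMIs. Per 10000 UMIs of the cell they also held fewer than 20 of Ltf and Ngp together, fewer than 30 of H2-Aa, H2-Ab1 and H2-Eb1 together, and fewer than 10 of C1qa, C1qb and C1qc together. The members were thus chosen by their own UMI counts of Car4 and of these gate genes. The limits kept out secondary granule-stage granulocytes, antigen-presenting cells and C1q macrophages. The rule took 9789 of 21035 cells, 4783 of 9621 in the DMSO library and 5006 of 11414 in the dabrafenib (DAB) library. The marrow came from C57BL/6 mice, female and 10 weeks old, and spent 4 days in culture with 1.5 µM DAB or its vehicle DMSO, in the presence of GM-CSF and IL-6 at 50 ng/mL of either cytokine. DAB is an inhibitor of the BRAF kinase that the study examined as an activator of the stress kinase GCN2. There was 1 library of 10x Genomics 5′ v2 chemistry per condition, so no difference below has a replicate check or a test, and each interval (95%) covers counting error only. The sources used here do not say how many mice gave a library.

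Car4 encodes carbonic anhydrase 4, an enzyme held on the outer membrane by a lipid anchor, where it interconverts carbon dioxide and bicarbonate. Chil3 (Ym1) is a secreted chitinase-like lectin of mouse granulocytes and alternatively activated macrophages. Trf is the iron carrier transferrin, Hp is haptoglobin, which binds free haemoglobin, and Gal is the neuropeptide galanin. In granulopoiesis, granule proteins are made in waves, with the primary granule proteases first, the secondary granule proteins Ltf, Ngp and Camp next, and Mmp8, Mmp9, Retnlg and the receptors Csf3r and Cxcr2 late. GCN2 senses uncharged tRNA and, through the transcription factor ATF4, raises genes for amino acid synthesis and uptake.

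Car4 (ENSMUSG00000000805) lies at chr11:84957786-84966044 on the plus strand of GRCm38. Chil3 (chr3:106147554-106167564), Trf (chr9:103204001-103230444), Hp (chr8:109575128-109579172) and Gal (chr19:3409915-3414544) lie on minus strands. Chil3 has near-identical neighbours such as Chil4, so reads that fit several copies could have been dropped or shifted between them.

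The name granulocytes, under which these cells had been grouped, was checked against receptor genes and was not borne out for all of them. Csf1r, the receptor of the monocyte and macrophage growth factor, had at least 2 UMIs in 46.7% (DMSO) and 44.7% (DAB) of cells. Csf3r, the receptor of the granulocyte growth factor, reached 2 UMIs in 15.3% and 11.8%, and Ly6g, a neutrophil surface protein, in 12.3% and 10.5%. Both Csf1r and Csf3r reached 2 UMIs in 5.50% and 3.78% of cells. Thinned to 1500 UMIs per cell, 21.6% (DMSO) and 20.02% (DAB) held a Csf1r UMI and 12.4% and 11.03% a Csf3r UMI. In cells with at least 5 UMIs of B cell genes, which should lack both, these shares were 1.77% and 1.54% for Csf1r and 0.885% and 1.03% for Csf3r. In cells of the same exclusion limits with no Car4 UMI, 2 UMIs were reached in 31.0% and 36.0% for Csf1r and in 20.6% and 8.93% for Csf3r. S100a8, of the late neutrophil list below, was found after thinning in 74.3% and 90.8% of Car4-positive cells, against 23.0% and 35.9% of the B cell gene-positive cells. Genes of both kinds were thus present. The population is therefore called Car4-positive cells here and given no cell type name.

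In sum 56907924 UMIs fell in the DMSO cells (per cell, median 9521 UMIs from 2615 genes) and 65586008 in the DAB cells (median 10172 UMIs from 2717.5 genes). Barcode sequences were partly shared between the libraries: 152 occurred in both files, and 28 belonged to Car4-positive cells in both. Leaving out the shared barcodes moved none of the main results. A score against simulated doublets called 6.59% (DMSO) and 9.41% (DAB) of Car4-positive cells, and these were kept. Among cells with 2 or more Car4 UMIs outside the exclusion limits, the called shares were 18.7% and 29.9%.

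Genes of several other cell types were at low levels. Levels are given in CPM, the UMIs of a gene per 1000000 UMIs summed over the cells of a set. The 8 B cell genes summed to 7.64 CPM with DMSO and 5.70 with DAB, with Ighm, the immunoglobulin heavy chain, as the most abundant. The 9 erythroid genes summed to 8.42 and 9.67 CPM. The 6 T or NK cell genes summed to 28.7 and 13.4 CPM, most of it Il7r at 27.0 and 12.01 CPM. The 7 activated dendritic cell genes summed to 9.58 and 4.64 CPM. In the DAB library the other lists were higher than these. In the DMSO library the early progenitor and eosinophil lists were below the T or NK cell list. The 5 plasmacytoid dendritic genes summed to 213 CPM with DMSO and 231 with DAB, most of it Bst2, which other cells also express. The 9 early progenitor genes summed to 25.9 and 77.9 CPM, and the 9 eosinophil genes to 12.99 and 53.5. The 10 basophil or mast cell genes summed to 71.4 CPM with DMSO and 215 with DAB. Their leading gene with DAB was Hdc, the histamine-forming enzyme, at 73.0 CPM against 8.65 with DMSO, while the basophil protease Prss34 was at 23.2 against 29.0 CPM. What these sums add to the results below was not tested.

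Car4-positive cells made up 49.7% of the DMSO library (exact Clopper-Pearson interval 48.7 to 50.7%) and 43.9% of the DAB library (42.9 to 44.8%). Seen within the exclusion limits, where 7044 DMSO and 9819 DAB cells lay, the contrast was wider. Car4 reached 2 UMIs in 67.9% of these cells with DMSO and in 50.98% with DAB, and cells with no Car4 UMI took 25.8% and 42.3%. A threshold in UMIs favours deep cells, and the DAB library was deeper. When every cell was thinned to 1500 UMIs, and 257 shallower DMSO and 164 shallower DAB cells were dropped, cells within the limits with at least 1 Car4 UMI were 46.9% of 9364 DMSO cells and 38.2% of 11250 DAB cells. Thinned to 5000 UMIs with 2 Car4 UMIs required, the shares were 50.6% of 6780 and 38.8% of 8251 cells. DAB was thus below DMSO under each of these thresholds, with log2 ratios of -0.18 as counted, -0.30 at 1500 UMIs and -0.38 at 5000. The thinned shares also differ in the UMIs required and in the cells left out.

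Car4 was not confined to the cells taken by the rule. Of the cells over the Ltf and Ngp limit, 41.4% of 1709 with DMSO and 26.5% of 727 with DAB held 2 or more Car4 UMIs. For background, cells with at least 5 UMIs of B cell genes, which should lack Car4, reached 2 UMIs in 7.83% of 115 and 9.60% of 198 cells, at median depths of 4758 and 5805 UMIs. After thinning to 1500 UMIs at least 1 Car4 UMI remained in 88.8% (DMSO) and 82.3% (DAB) of Car4-positive cells, against 9.74% and 6.15% of the B cell gene-positive cells.

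The amount of Car4 per cell ranged widely. A Car4-positive cell held between 2 and 515 Car4 UMIs with DMSO, with a median of 25, and between 2 and 434 with DAB, with a median of 16. Per 10000 UMIs the medians were 27.6 with DMSO (quartiles 11.9 and 54.6) and 17.99 with DAB (quartiles 7.80 and 38.1). Summed over cells, Car4 stood at 3772 CPM (3756 to 3788) with DMSO and 2299 CPM (2287 to 2310) with DAB, a log2 ratio of DAB over DMSO of -0.71. Car4 chose the cells, so these levels are a description.

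The 4 other genes given as markers of these cells were lower with DAB. Chil3 was at 4322 CPM (4305 to 4339) with DMSO and 1773 CPM (1763 to 1784) with DAB, a log2 ratio of -1.29. Trf was at 878 and 189 CPM, a log2 ratio of -2.22. Hp was at 191 and 33.9 CPM, a log2 ratio of -2.50, and Gal at 45.2 and 6.54 CPM, a log2 ratio of -2.79. None of these ratios was particular to Car4-positive cells, since cells of the same exclusion limits with no Car4 UMI had log2 ratios of -0.63 for Chil3, -1.97 for Trf, -2.13 for Hp and -1.77 for Gal. Those cells, 1819 with DMSO and 4154 with DAB and called Car4-zero cells here, serve as the comparison throughout. Their median depths were 5060 and 9648.5 UMIs.

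Chil3 and Trf were higher in Car4-positive than in Car4-zero cells of both libraries, Hp clearly so with DMSO alone, and Gal pointed in opposite directions. The log2 ratios over Car4-zero cells were 1.24 with DMSO and 0.58 with DAB for Chil3 and 0.73 and 0.48 for Trf. For Hp they were 0.40 and 0.04, and for Gal 0.35 and -0.67. Chil3 was far from uniform. After thinning to 1500 UMIs, 67.9% (DMSO) and 52.3% (DAB) of Car4-positive cells held a Chil3 UMI, against 37.0% and 31.6% of the Car4-zero cells and 15.9% and 9.23% of the B cell gene-positive cells. Without thinning the DMSO share was 80.6% in Car4-positive cells. Chil3 was higher still in the cells over the Ltf and Ngp limit, at 9575 CPM with DMSO and 4288 with DAB.

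**Figure D1:**
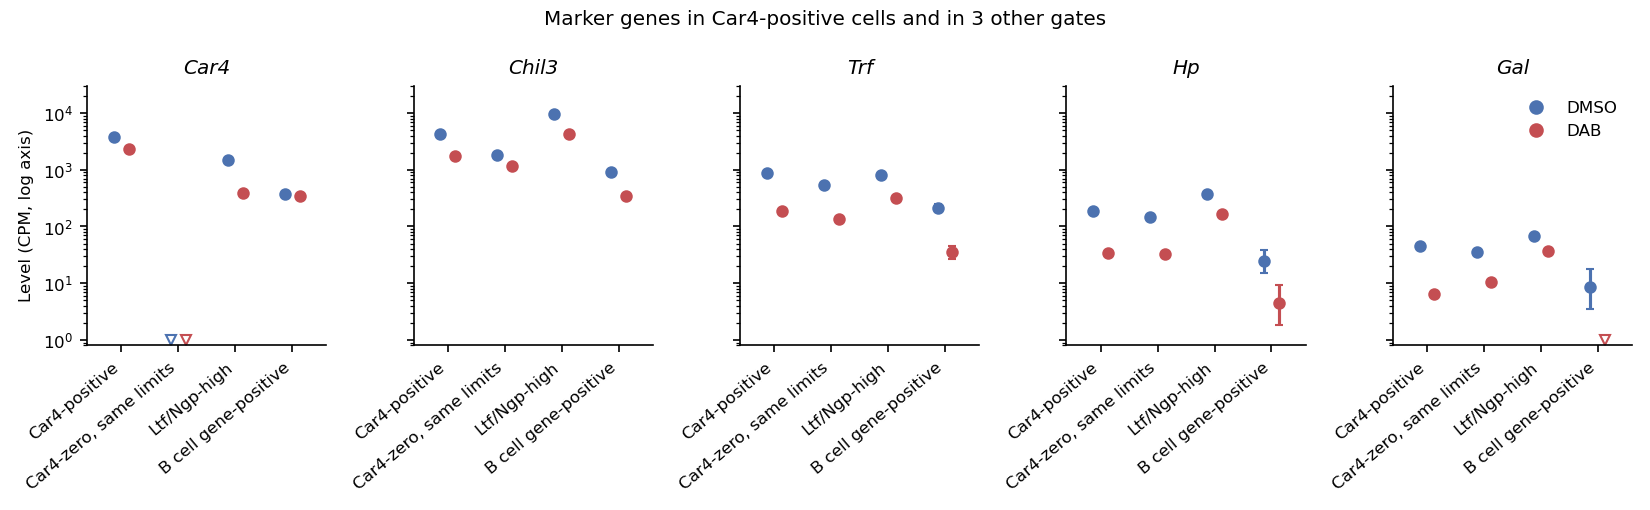
Levels of Car4, Chil3, Trf, Hp and Gal in CPM (log axis) for 4 sets of cells in the DMSO and DAB libraries, with bars for the 95% Poisson interval of the summed UMIs and open triangles where no UMI was found. Chil3 in Car4-positive cells stands at 4322 CPM with DMSO and 1773 with DAB, and is higher still in the Ltf and Ngp high cells (9575 and 4288 CPM).

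Car4-positive cells were compared with Car4-zero cells across genes. Of 6261 genes with at least 20 CPM, 19 were at least 2-fold higher in both libraries (0.303%) and 81 at least 2-fold lower (1.29%). The 19 became 9 as a mean over cells, 31 with doubled exclusion limits and 228, with 1177 lower, without a CPM floor. Against all other cells, which include the cell types that the exclusion limits keep out, 40 of 6155 genes were at least 2-fold higher in both libraries (0.65%) and 123 lower (2.0%). The 40 became 16 as a mean over cells. Higher and lower genes numbered 17 and 36 with a floor of 100 CPM, and 251 and 1578 without a CPM floor. Car4 was left out of these counts, while the genes of the exclusion limits, which also chose the cells, could enter them.

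CXC chemokines, a stefin and secreted proteins were among the leading higher genes, while the chemokine list as a whole was divided. Of its 15 genes, 6 were at least 2-fold higher and 5 lower than in Car4-zero cells with DMSO (background 1.81% and 6.77%), and 2 higher and 4 lower with DAB (1.69% and 9.67%). Slc7a2, an importer of arginine, was at 281 and 82.3 CPM, with log2 ratios over Car4-zero cells of 1.09 and 1.59. Cxcl3 and Cxcl2, chemokines that draw neutrophils, had log2 ratios of 1.90 and 1.58 (Cxcl3) and 1.51 and 1.24 (Cxcl2) over Car4-zero cells. Stfa3, a stefin A inhibitor of cysteine cathepsins, had 2.32 and 1.77, and Kcnn3, a calcium-gated potassium channel, 2.07 and 1.85. Spp1 (osteopontin) was at 3536 and 4839 CPM, log2 ratios of 1.19 and 0.86. Ccl6, a CC chemokine, was the most abundant of the leading genes at 7298 and 11563 CPM, with log2 ratios of 1.22 and 0.85.

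Other leading genes over all other cells were Serpinb2, an inhibitor of plasminogen activation, the clathrin adaptor Dab2, the collagenase Mmp8, the secreted-protein kinase Fam20c and the coagulation factor F7. Serpinb2 was at 123 CPM with DMSO and 365 with DAB, log2 ratios over Car4-zero cells of 1.04 and 1.11. Mmp8 was at 797 and 961 CPM, log2 ratios of 0.92 and 1.07, and Dab2 at 146 and 90.0 CPM, log2 ratios of 0.95 and 0.97. F7 was at 137 and 71.7 CPM, with log2 ratios of 0.61 and 1.04. These genes do not belong to a single lineage: Mmp8 is a neutrophil granule protein, and Dab2 and F7 are better known from monocytes and macrophages.

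Among the lower genes, Elane, the neutrophil elastase of primary granules, was at 24.9 CPM with DMSO and 19.2 with DAB in Car4-positive cells against 233 and 66.0 in Car4-zero cells. Prtn3, proteinase 3 of the same granules, was at 92.0 and 46.3 CPM against 433 and 169. Of the 10 primary granule genes, 6 were at least 2-fold lower than in Car4-zero cells with DMSO and 6 with DAB, with list medians of -1.99 and -1.40 on the log2 scale. Among all genes with at least 20 summed UMIs in this comparison, 6.77% were at least 2-fold lower with DMSO and 9.67% with DAB. The early progenitor list had medians of -2.53 and -1.34, the basophil or mast cell list -3.46 and -2.14, and the B cell list -3.85 and -2.14. Igkv3-4, an antibody light chain segment, was at 660 CPM in the DMSO Car4-zero cells and at 0.04 CPM in the DMSO Car4-positive cells.

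Set against Car4-zero cells, the late neutrophil genes were shifted toward Car4-positive cells. Against all other cells, which include the Ltf and Ngp high cells, the direction differed between the libraries. The 16 genes summed to 30453 CPM in Car4-positive cells against 53337 in all other cells with DMSO, and to 47269.5 against 31409 with DAB. Of 16 tertiary granule and mature neutrophil genes, 14 were above Car4-zero cells with DMSO and 16 with DAB, 6 of them at least 2-fold in each library. The background shares for at least 2-fold higher genes were 1.81% with DMSO and 1.69% with DAB. The median log2 ratios were 0.87 and 0.89. S100a8, a subunit of calprotectin, was at 14515 CPM with DMSO and 23317 with DAB, against 6318 and 11874 in Car4-zero cells. Its partner S100a9 had log2 ratios over Car4-zero cells of 1.09 and 0.78, and Retnlg, a resistin-like secreted protein, had 1.55 and 1.27. Further genes were named after their values were seen: Mmp9, a gelatinase, with 0.96 and 1.52, Wfdc21, a secreted whey acidic protein domain factor, with 1.26 and 1.53, and Ly6g with 1.10 and 0.66. Csf3r went the other way with DMSO, at 54.0 CPM against 96.5 in Car4-zero cells, and was higher with DAB, at 37.6 against 25.4 CPM.

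The 256 DMSO and 354 DAB cells with exactly 2 Car4 UMIs, just inside, had Chil3 at 2468 and 1969 CPM, and the 442 and 659 cells with exactly 1, just outside, at 2400 and 1451 CPM. Car4-zero cells had 1835 and 1185 CPM. With DMSO the cells at the threshold thus lay between Car4-zero cells and all Car4-positive cells (4322 CPM), and with DAB those just inside were above all Car4-positive cells (1773 CPM). At the Ltf and Ngp limit, Chil3 was at 10178 CPM in 127 DMSO and 3530 in 72 DAB cells just inside, within a factor of 2 of the limit, and at 10605 and 3782 CPM in the 125 and 60 cells just outside. Chil3 was thus close on both sides of the Ltf and Ngp limit.

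Among the Car4-positive cells, gene levels differed with the amount of Car4. The cells were divided at 5, 20 and 50 Car4 UMIs per 10000 into 4 classes of 426, 1471, 1527 and 1359 DMSO cells and of 764, 1898, 1470 and 874 DAB cells. Depth differed too, with median UMIs from the lowest to the highest class of 15838.5, 8353, 9637 and 8821 with DMSO and of 17203, 10527.5, 8687.5 and 7254 with DAB, and its part in the gradients was not tested. With DMSO, Chil3 was at 2151, 3254, 4367 and 6606 CPM from the lowest to the highest class. With DAB it was at 1762, 1627, 1895 and 2014 CPM, a nearly level series.

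The chemokines Cxcl3 and Ccl6 were higher in the upper Car4 classes of both libraries, and Mki67 was lower. Cxcl3 was at 137 CPM in the lowest and 668 in the highest class with DMSO, and at 2294 and 4689 with DAB. Ccl6 went from 3366 to 11357 CPM with DMSO and from 9629 to 13293 with DAB. These genes shared their direction between the libraries while their levels differed. Mki67, a marker of cycling cells, was at 168 CPM in the lowest and 37.5 in the highest class with DMSO and at 90.9 and 6.0 with DAB. Cells of the clusters led by mitosis genes, described below, were deep, with median UMIs of 21734.5 with DMSO and 34993 with DAB. The lowest class favours such cells by the rule, so the Mki67 values are a description. The basophil gene Prss34 was highest in the lowest class, at 175 against 0.2 CPM with DMSO and 81.8 against 9.0 with DAB. Ly6g was the gene whose direction differed, at 11.4 CPM in the lowest and 150 in the highest class with DMSO and at 97.2 and 69.8 with DAB.

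**Figure D2:**
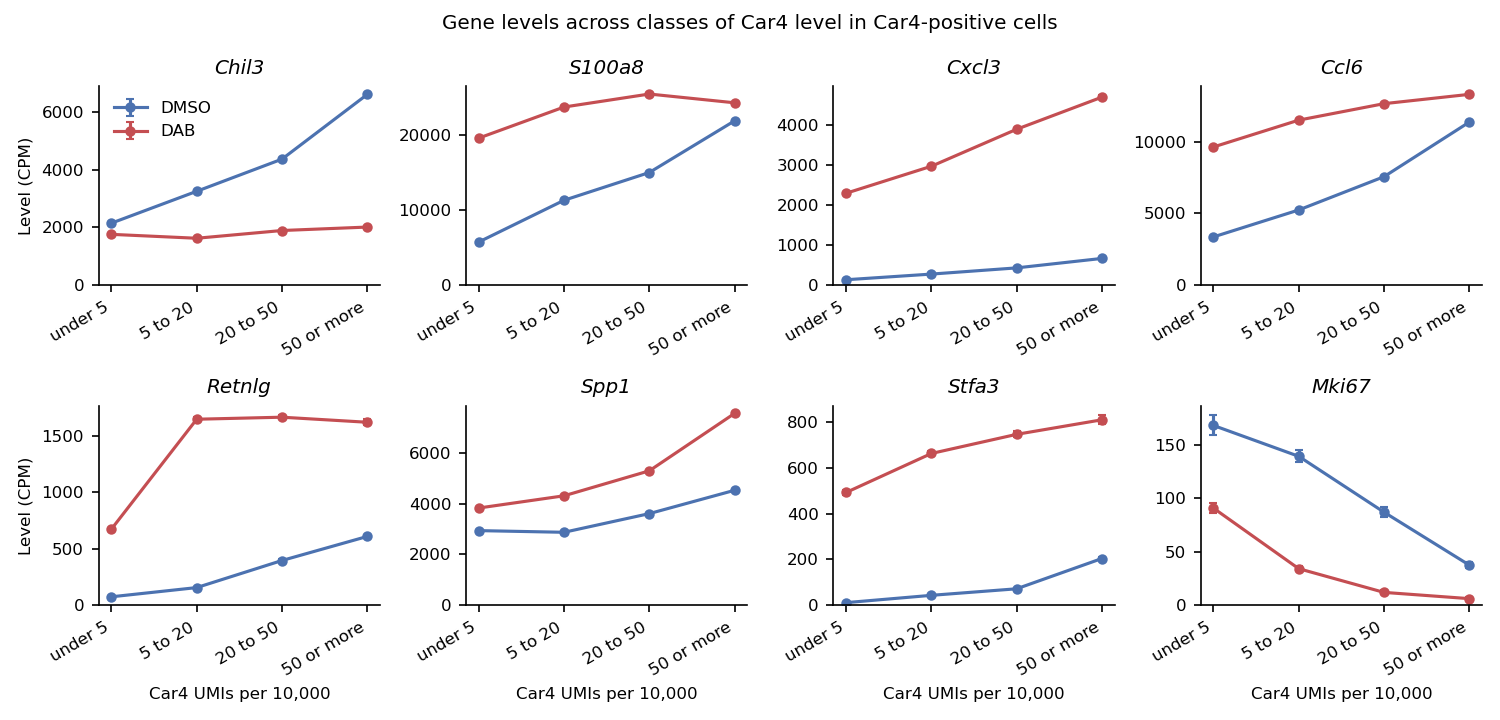
Levels in CPM of 8 genes (linear axes from 0, scaled per gene) over the 4 classes of Car4 per 10000 UMIs in the DMSO and DAB libraries, with bars for the 95% Poisson interval. Chil3 goes from 2151 to 6606 CPM with DMSO and from 1762 to 2014 with DAB, while Cxcl3 is higher in the upper classes of both libraries and Mki67 lower.

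Clustering the cells of each library by itself, without Car4 and the genes of the exclusion limits, gave 9 clusters per library, which are numbered and not named. The genes that define a cluster chose it and are no result. With DMSO, cluster 1 (29.9% of cells) was led by Ccl17, Mmp12 and Ptx3, cluster 2 (24.7%) by Retnlg, Ly6g and S100a9, and cluster 3 (20.5%) by Csf3r, Ddt and Gadd45b. Cluster 4 (13.99%) was led by Abca13, Syne1 and Stx11, and cluster 5 (6.86%) by the mitosis genes Ube2c, Cenpf and Top2a. With DAB, cluster 1 (26.5%) was led by Mmp12, Prg2 and Lpl, cluster 2 (24.9%) by Csf3r, Fpr1 and Cd14, cluster 3 (15.4%) by S100a9, Olfml2b and S100a8, cluster 4 (12.6%) by Ccl3, Ccl4 and Gpnmb, and cluster 5 (9.71%) by stefins.

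Each clustered cell holds Car4 by the rule, and its level varied between clusters. With DMSO Car4 was at 3078 CPM in cluster 1, 5295 in cluster 2, 4297 in cluster 3, 5568 in cluster 4 and 1908 in cluster 5. With DAB it was at 2068, 4489, 2990, 2631 and 1673 CPM in clusters 1 to 5. Chil3 was at 1546 CPM in DMSO cluster 1 and 13520 in DMSO cluster 2. Csf3r was at 7.68 CPM in DMSO cluster 1 and 252 in DMSO cluster 3. The clusters also differed in depth, with median UMIs of 17451 in DMSO cluster 1, 4414.5 in DMSO cluster 3, 17034 in DAB cluster 1 and 4017.5 in DAB cluster 2.

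**Figure D3:**
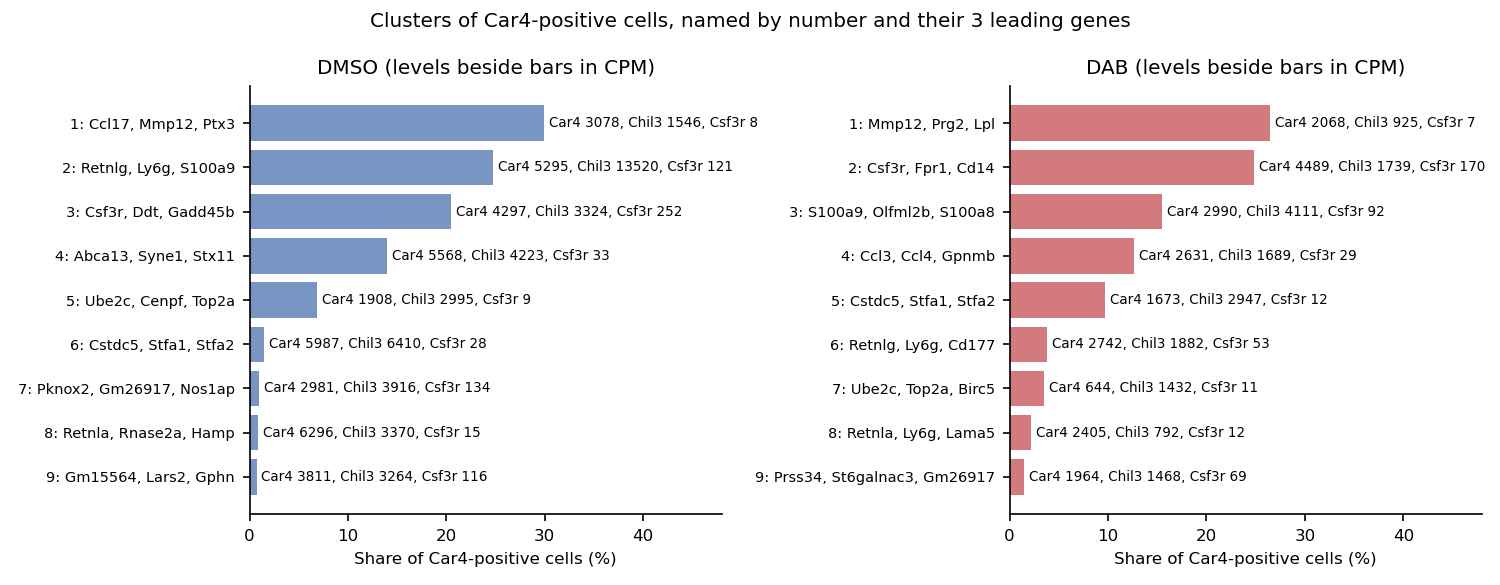
Share of the Car4-positive cells (percent of cells in the library) in each of the 9 clusters of the DMSO and of the DAB library, labelled with 3 leading genes and with the Car4, Chil3 and Csf3r levels in CPM. Car4 ranges from 644 CPM in DAB cluster 7 to 6296 in DMSO cluster 8, and clusters carry the same number in both libraries by rank of size alone.

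DAB against DMSO in the Car4-positive cells gave 106 genes at least 2-fold higher and 183 at least 2-fold lower among 5764 with at least 20 CPM in a library (1.84% and 3.17%). Among those with at least 50 CPM in a library, the highest was Cox6a2, a heart and muscle isoform of a cytochrome oxidase subunit, at 80.5 CPM with DAB against 7.93 (log2 ratio 3.34, interval 3.21 to 3.49). Igfbp6, a binding protein of insulin-like growth factor, followed at 60.3 against 6.33 CPM. The lowest of them was Timp1, an inhibitor of matrix metalloproteinases, at 1.74 against 55.6 CPM (log2 ratio -5.00, interval -5.28 to -4.73). The Car4-zero cells of the same libraries had log2 ratios of 3.19 for Cox6a2, 3.13 for Igfbp6 and -3.18 for Timp1. Cox6a2 and Igfbp6 thus differed by nearly as much without Car4, and Timp1 by less.

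**Figure D4:**
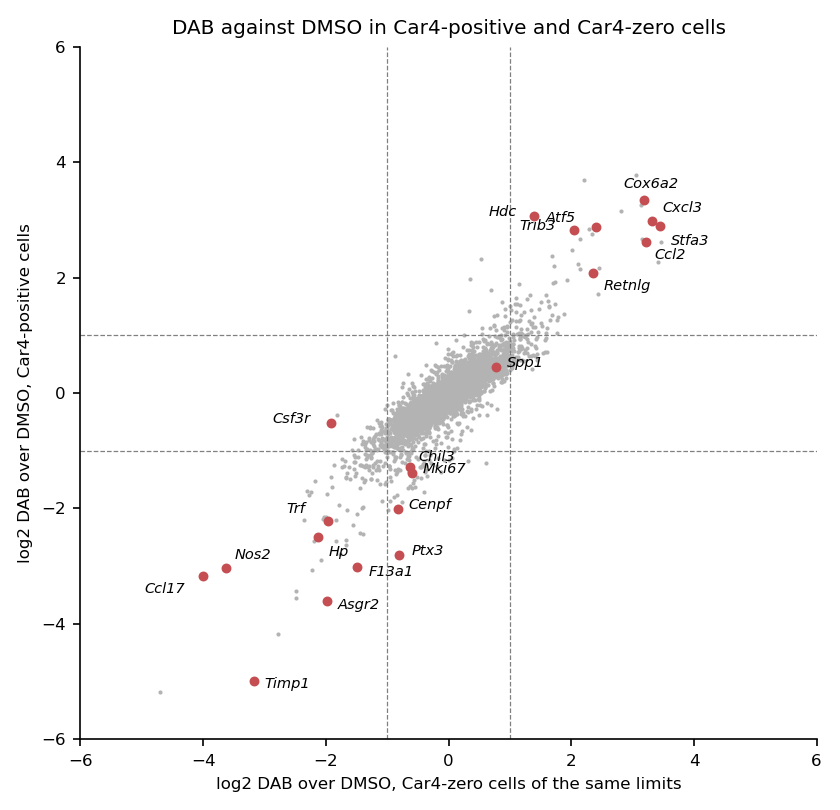
Log2 ratio of DAB over DMSO in Car4-positive cells against the same ratio in Car4-zero cells for genes with at least 20 CPM, with dashed lines at 2-fold. Cox6a2 lies at 3.34 and 3.19 and Timp1 at -5.00 and -3.18, so both stand far from 0 on both axes. Both axes come from the same 2 libraries and are not independent.

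Genes of the amino acid response were higher with DAB across the list. Of 34 genes, 33 had enough UMIs, 31 of these were above 0 and 23 at least 2-fold higher, with 1 at least 2-fold lower, against a background of 4.01% higher and 8.96% lower among 14661 genes. Their median log2 ratio was 1.35 (1.04 to 1.83), against -0.08 for all genes. In Car4-zero cells the median was 1.47, with 21 genes at least 2-fold higher (background 5.07% higher and 8.9% lower). Trib3, a pseudokinase that feeds back on ATF4, was at 84.1 CPM with DAB against 11.9 with DMSO. Atf5, a transcription factor of the ATF4 family, was at 187 against 25.3 CPM. Slc3a2, the shared chain of several amino acid exchangers, was at 248 against 110 CPM, and Slc7a11, the cystine importer, at 220 against 111.

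Further genes of this list were named after their values were seen. Asns, asparagine synthetase, was at 124 CPM with DAB against 26.3 with DMSO (log2 ratio 2.24, interval 2.16 to 2.32). Phgdh, the first enzyme of serine synthesis, was at 107 against 28.7 CPM, and the leucine importer Slc7a5 at 111 against 28.4. Cth, the cystathionine lyase that makes cysteine, was near absent with DMSO at 0.28 CPM and at 25.5 with DAB, a log2 ratio between 5.80 and 7.31. The glutathione-degrading enzyme Chac1 was at 21.4 against 3.36 CPM and the secreted Stc2 at 46.4 against 5.20. Atf3, a stress-induced transcription factor, was the gene that went at least 2-fold the other way, at 24.9 against 61.4 CPM. Ddit4, an inhibitor of mTORC1, was also lower, at 107 against 153 CPM.

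ATF4 with C/EBP partners binds a composite element that can be written TGATGNAA. These letters were searched on both strands in the RefSeq promoter windows of GRCm38.p6, from 250 bases before to 50 after each start, and occurred in 3.97% of 32851 windows. Of the list, 28 genes had a window and 12 of these held the letters (42.9%). The former share counts windows and the latter genes, so they are not in the same unit. The list was also drawn up as targets of ATF4, so a share above that of all windows follows from its choice and is no result. Of the 12, 11 were measured in Car4-positive cells and 7 were at least 2-fold higher with DAB (background 4.01%), and of the 16 without them 11 were. A match is not a binding site. A match from each of 5 genes named above is shown with 10 bases on each side, on the strand of the gene, with the element in capitals. They lie at chr6:7693215-7693242 for Asns, chr2:119351039-119351066 for Chac1, chr2:152344029-152344056 for Trib3, chr3:50443643-50443670 for Slc7a11 and chr1:191183426-191183453 for Atf3. Chac1 is on the plus strand and the others on the minus strand. The Asns match shown reads in the direction of the gene and the other matches shown on its opposite strand. Slc7a11 holds a further match on its own strand, at chr3:50443662-50443689. Atf3 was lower with DAB although it holds the element.
Asns: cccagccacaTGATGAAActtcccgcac
Chac1: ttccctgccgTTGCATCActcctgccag
Trib3: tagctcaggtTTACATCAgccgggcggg
Slc7a11: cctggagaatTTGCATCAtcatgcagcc
Atf3: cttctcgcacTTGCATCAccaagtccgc

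Stefins and some chemokines were also higher with DAB. The 7 genes of the stefin A cluster were all above 0, with 5 at least 2-fold higher (background 4.01%) and a median log2 ratio of 2.63. In Car4-zero cells the median was 3.15, with 7 at least 2-fold higher (background 5.07%). Stefins led 1 cluster in each library, which held 1.46% of the Car4-positive cells with DMSO (cluster 6) and 9.71% with DAB (cluster 5). The libraries were clustered separately, and the part of these clusters in the ratios was not tested. Cstdc4, the most abundant, was at 4937 CPM with DAB against 2593 with DMSO, and Cstdc5 at 1485 against 240.5. Stfa2 was at 871 against 136 CPM and Stfa3 at 661 against 88.6. These genes lie side by side on chromosome 16 as near-identical copies, so the split of UMIs among them is uncertain. Cxcl3 was at 3249 against 408.5 CPM (log2 ratio 2.99, interval 2.97 to 3.01), Cxcl2 at 918 against 204 and the monocyte-drawing Ccl2 at 157 against 25.7.

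The chemokine list as a whole was divided. Of 15 genes, 4 were at least 2-fold higher (background 4.01%) and 4 at least 2-fold lower (8.96%) with DAB, and the median log2 ratio was 0.24. Ccl17 and Ccl24, which draw T cells and eosinophils, were at 13.6 against 123 CPM and at 22.8 against 123. In Car4-zero cells the log2 ratios were -4.01 for Ccl17 and -1.44 for Ccl24, against -3.18 and -2.43 in Car4-positive cells. Ccl9 was at 868 against 773 CPM and Ccl6 at 11563 against 7298.

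Late neutrophil genes were modestly higher with DAB in Car4-positive cells. Of 16, 13 were above 0 and 4 at least 2-fold higher (background 4.01%), with a median of 0.59 in both Car4-positive and Car4-zero cells. In all other cells the 16 genes summed to less with DAB, at 31409 CPM against 53337. Of cells with at least 2 Car4 UMIs, the Ltf and Ngp limit kept out 12.5% with DMSO and 3.66% with DAB, and what this adds was not tested. In Car4-positive cells Retnlg was at 1417 CPM against 336, Mmp9 at 583 against 229 and Cd9, a tetraspanin, at 834 against 610. Il1rn, the interleukin-1 receptor antagonist, was at 520 against 309 CPM. Csf3r was lower, at 37.6 against 54.0 CPM (log2 ratio -0.52), and in Car4-zero cells its log2 ratio was -1.92. The secondary granule list had a median of 0.21, which holds the capped genes Ltf and Ngp among its 12 and is not read further. Lcn2, the siderophore-binding lipocalin, was at 1418 against 951 CPM, and the primary granule list had a median of -0.06. Granulocyte transcription factors had a median of 0.12, with Cebpb, a driver of emergency granulopoiesis, at 1259 against 1421 CPM and Spi1 (PU.1) at 392 against 293.5.

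Monocyte and macrophage genes did not share a direction with DAB. The macrophage list had a median of -2.07, but 3 of its 8 genes are the C1q genes that the exclusion limits cap, and the median was -0.31 with a floor of 100 CPM, so nothing is read from it. Cd68, a lysosomal membrane protein, was at 277 CPM against 344 and Trem2, a lipid-sensing receptor, at 158 against 241. In the monocyte list 5 of 10 genes were at least 2-fold lower (background 8.96%) and 4 were above 0. Its median was -0.78 (-2.63 to 0.97), which became -0.045 with a floor of 100 CPM, and its summed level was 1372 CPM with DAB against 1271. The chemokine receptor Ccr2 was at 19.8 against 122 CPM and the clotting factor chain F13a1 at 19.2 against 156. Ly6c2, also a monocyte gene, was higher at 587 against 292 CPM, and Csf1r was at 147 against 177. The lectin receptor Asgr2 was at 7.08 against 85.9 CPM and the pentraxin Ptx3 at 11.7 against 82.1.

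Among alveolar macrophage genes, 6 of 12 measured were at least 2-fold lower (background 8.96%). Their median was -1.01, which became -1.78 with a floor of 100 CPM and -0.46 with each cell thinned to 2000 UMIs. Fabp5, a fatty acid carrier, was at 58.7 against 349 CPM and Lpl, lipoprotein lipase, at 193 against 660. The mannose receptor Mrc1, named after its values were seen, was at 1.17 against 21.3 CPM. The immature monocyte list had 2 of 7 genes at least 2-fold lower and a median of -0.78, which became -0.13 as a mean over cells. Mmp12, the macrophage elastase, was at 764.5 against 1349 CPM, while Spp1 was at 4839 against 3536. The MHC class II list had a median of -0.69, which holds the 3 capped genes H2-Aa, H2-Ab1 and H2-Eb1 and is not read further. Its most abundant gene Cd74, the invariant chain, was at 1618 against 1252 CPM.

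Nos2, the inducible nitric oxide synthase, was at 17.6 CPM against 143 (log2 ratio -3.02), and in Car4-zero cells its log2 ratio was -3.62. The list of suppressive enzymes and ligands, to which it belongs, had a median of -0.20 with 2 of 13 genes at least 2-fold lower (background 8.96%). Tgfb1, the immunosuppressive cytokine, was at 491 against 324 CPM.

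Iron and heme genes did not share a direction. Of 12 measured, 6 were above 0, 4 were at least 2-fold lower (background 8.96%) and none was 2-fold higher. Their median was -0.07, which became -1.15 with a floor of 100 CPM. Fth1, the ferritin heavy chain, was at 28417 CPM with DAB against 22481, and Ftl1, the light chain, at 8520 against 13524. Besides Trf and Hp, the genes at least 2-fold lower were Hmox1, the heme oxygenase, at 199 against 441 CPM, and Lrp1, a scavenger receptor that also takes up heme with hemopexin, at 45.0 against 103. Hmox1 and Lrp1 were named after their values were seen. The carbonic anhydrase list had a median of -0.29, and Car4 was its only abundant member, with Car9 at 8.08 CPM with DAB and 10.5 with DMSO and Car2 at 8.97 and 7.75. The chitinase-like list had 3 measured genes and a median of -1.29, and the galanin receptors were at or near 0.

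Cell cycle genes were lower with DAB in Car4-positive cells, while their list median was near 0 in Car4-zero cells. Of 22 proliferation genes, 14 were at least 2-fold lower (background 8.96%), with a median of -1.16 (-1.37 to -0.38). Under the alternatives the median lay between -1.79 (at least 5 Car4 UMIs per 10000) and -0.94. In Car4-zero cells no gene was at least 2-fold lower (background 8.9%) and the median was -0.07. Within the Car4-positive cells, those with at least 2 Csf3r UMIs and no Mmp12 had a median of 0.45 with none of the 22 at least 2-fold lower (background 2.87%). There 16 of the 22 were above 0 and 3 at least 2-fold higher (background 4.86%). Cells with at least 2 Mmp12 UMIs and no Csf3r had a median of -1.43 with 15 lower (background 10.9%). The other Car4-positive cells had -0.97 with 9 lower (background 5.85%). Clusters led by mitosis genes held 6.86% of the cells with DMSO (cluster 5) and 3.46% with DAB (cluster 7), and their part in the ratios was not tested. Whether the treatment ratios of these cell sets differ beyond library spread cannot be tested with 1 library per condition. Mki67 was at 38.5 CPM with DAB against 101 with DMSO (log2 ratio -1.38, interval -1.45 to -1.32), and in Car4-zero cells at 91.8 against 139. Top2a, the replication topoisomerase, was at 45.2 against 105 CPM and Ube2c, a mitotic ubiquitin carrier, at 62.0 against 160. Pcna, the replication clamp, was nearer to level, at 52.7 against 65.3 CPM. With DAB, 19 of the 22 genes were at least 2-fold lower in Car4-positive than in Car4-zero cells (background 9.67%), and with DMSO none was. The share of cells that pass the Car4 threshold and the depth of the Car4-zero cells (median 5060 and 9648.5 UMIs) differed between the libraries as well, and what they add was not tested. A change within cells and a different make-up of the Car4-positive cells cannot be told apart.

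The median of all genes was -0.08, and several lists had medians near it. The unfolded protein response had 0.03 and glycolysis -0.01, with no gene past 2-fold in either. The nuclear respiratory chain genes had -0.11, where Cox6a2 was the exception among 31, the cytosolic ribosomal proteins -0.10 and the cytokine receptors -0.11. ERK output had 0.19, with 2 of 18 genes at least 2-fold higher (background 4.01%) and 2 lower (8.96%), STAT3 targets -0.31, STAT5 targets 0.35 and the NADPH oxidase 0.37. Among lists of other cell types, medians were above 0 for the basophil or mast cell list (1.97, with 7 of 9 genes at least 2-fold higher against a background of 4.01%), the early progenitor list (1.34, and 0.60 as a mean over cells) and the eosinophil list (1.35, and 0.49 with at least 2 Car4 UMIs per 10000). Gata2, which the basophil and progenitor lists share, was at 37.9 against 9.67 CPM, and Prg2, a granule protein of eosinophils, at 38.2 against 2.78. The B cell list had -0.38, the T or NK cell list -0.59, the activated dendritic list -0.86, the plasmacytoid dendritic list -0.42 and the erythroid list -0.20. Of these, the B cell median became 0.34 with at least 5 Car4 UMIs per 10000. The erythroid median became 0.48 as a mean over cells and 0.16 without a CPM floor. In Car4-zero cells the basophil or mast cell median was 0.21, with 2 of 10 genes at least 2-fold higher (background 5.07%). The early progenitor and eosinophil medians there were 0.34 and 0.76. The basophil or mast cell genes summed to 71.4 CPM (DMSO) and 215 (DAB) in Car4-positive cells, against 649 and 675 in Car4-zero cells.

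**Figure D5:**
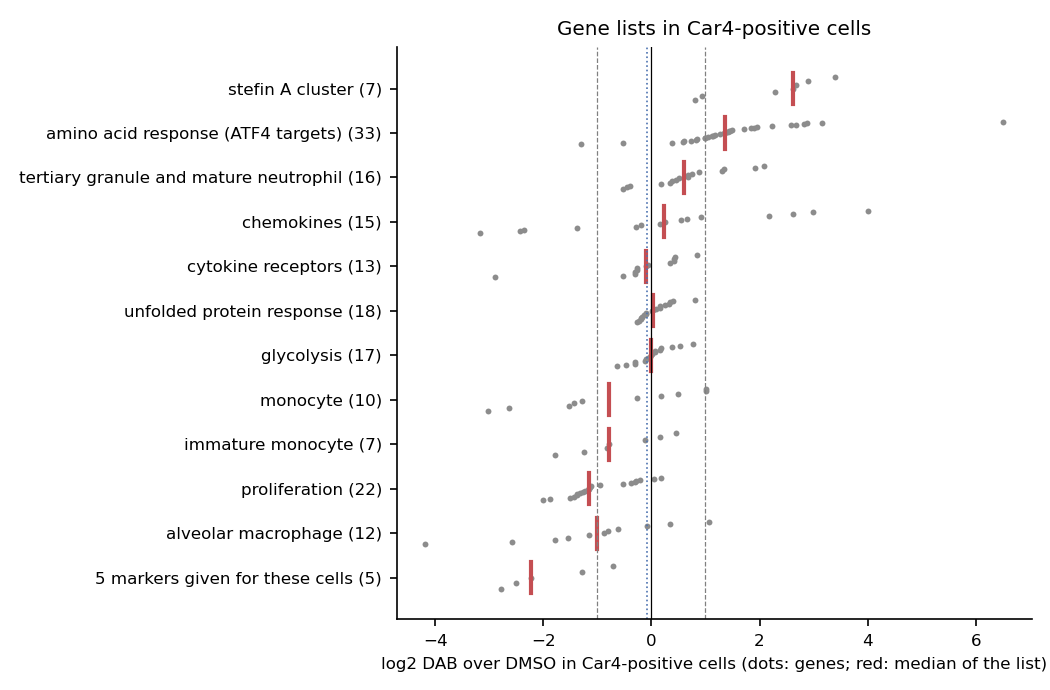
Log2 ratio of DAB over DMSO in Car4-positive cells for the measured genes of 12 lists (points) and their medians (bars), with a dotted line at the all-gene median of -0.08. The stefin A cluster (2.63) and the amino acid response (1.35) lie to the right, and proliferation (-1.16) and the 5 markers given for these cells (-2.22) to the left. The markers include Car4, which chose the cells, so their median is a description.

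The DAB over DMSO ratio of Chil3 differed between sets of Car4-positive cells. In a division chosen after the data had been seen, 1430 DMSO and 1295 DAB cells had at least 2 Mmp12 UMIs and no Csf3r, and 645 and 524 had at least 2 Csf3r UMIs and no Mmp12. Chil3 in the Mmp12 cells was at 1394 CPM with DMSO and 1149 with DAB, a log2 ratio of -0.28. In the Csf3r cells it was at 7930 and 2001 CPM, a log2 ratio of -1.99. The median of the 5 markers, which include the rule gene Car4, was -2.46 in the Mmp12 cells, -2.43 in the Csf3r cells and -2.14 in the other cells. Mmp12 and Csf3r, which divide the cells, were both lower with DAB over all Car4-positive cells (764 against 1349 CPM and 37.6 against 54.0), so the sets were not taken alike in both libraries and their ratios are a description. Ly6g pointed in opposite directions, with 2.82 in the Mmp12 cells and -1.34 in the Csf3r cells. Spp1 had 0.23 and 2.06.

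The amino acid response was higher with DAB in both sets. Asns had log2 ratios of 2.25 in the Mmp12 cells and 2.04 in the Csf3r cells, and Cxcl3 had 2.85 and 3.53. The amino acid response median was 1.27 and 1.64. The stefin median was above 0 in both sets but unequal, at 2.97 and 1.64. The late neutrophil median was unequal too, at 1.60 in the Mmp12 cells and 0.33 in the Csf3r cells, with 0.38 in the other cells. At least 2-fold higher were 9 of 15 genes in the Mmp12 cells (background 4.35%) and 3 of 16 in the Csf3r cells (4.86%).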

How the data were processed

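Bone marrow MDSC cultures were profiled by scRNA-seq, with 1 DMSO and 1 DAB library. The deposited values are UMI counts per gene and barcode, which the authors made with Cell Ranger 7.0.0 on mm10, without normalization. The files held 9855 DMSO barcodes with 106792967 UMIs and 11631 DAB barcodes with 165506902 UMIs. Under 1000 UMIs lay 199 and 147 barcodes, and a further 55 and 89 exceeded 10% mitochondrial UMIs. The integrated object and cluster names of the study were not used here, and doublets were called (0.8% per 1000 cells) but kept. Counts were summed over the cells of each set and scaled to CPM. Single-gene ratios used the sums as they were, list ratios had 1 count added to each sum and needed 20 summed UMIs, and medians carry order-statistic intervals. Intervals are exact Poisson, conditional binomial or Clopper-Pearson at 95%. UMIs of 5′ tags do not scale with transcript length. No test was made, because cells are not replicates, and the study's Wilcoxon test over cells was not used.

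The genes named were the markers and rule genes, the 20 highest and 10 lowest against other cells (at least 50 CPM), the 12 highest and 12 lowest DAB over DMSO ratios, and up to 4 abundant genes per list. A further 15 were named after their values were seen, and so were the genes that lead clusters. Some genes that this rule takes are not reported here. The members, the 36 lists and the comparisons were chosen with earlier results of these data known. Clusters used Pearson residuals (theta 100) of 2000 genes, 30 principal components, 20 neighbours and Leiden at resolution 0.6. Promoter windows on chromosome 18 were not used. Code was tested on simulated data. Tools were Python 3.11.15, numpy 2.4.6, scipy 1.17.1, pandas 2.3.3, scikit-learn 1.9.0, igraph 0.11.9, leidenalg 0.10.2 and matplotlib 3.10.9. Alternatives were other Car4 thresholds and exclusion limits, doublets or shared barcodes left out, other scalings and floors, and thinning.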

Additional observations from a re-analysis of the deposited data

Results flagged for a closer look

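Csf3r and Timp1 pointed in opposite directions in the libraries when Car4-positive cells were set against Car4-zero cells. For Csf3r the log2 ratio of Car4-positive over Car4-zero cells was -0.84 with DMSO and 0.56 with DAB. For Timp1 it was 0.59 with DMSO and -1.23 with DAB. With 1 library per condition these differences were not tested.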

How the results depend on the processing

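With 1 library per condition, no value has a test and leaving out a replicate was not possible. No paired analysis was possible because no comparison has more than 1 library per group. Of the main results recomputed under each alternative, 59 values moved beyond their interval or, for counts, by over 1.5 times, and 657 did not. Some intervals of list medians are wide, so medians among the 657 also shifted. Of the values of single genes, 2208 moved, 3 were reversed and 4385 did neither. Counts of genes depended most on the floor.

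The share of Car4-positive cells was 54.3% (DMSO) and 49.6% (DAB) with at least 1 Car4 UMI, 47.1% and 40.8% with 3, and 42.8% and 36.1% with 5 (log2 ratio -0.25). It was 50.97% (DMSO) with 2 per 10000 UMIs, 46.0% and 37.5% with 5 per 10000 (log2 ratio -0.29), 46.9% and 38.2% after thinning to 1500 UMIs (-0.30), and 38.8% (DAB) after thinning to 5000 (-0.38). Halved exclusion limits gave 47.2% (DMSO) and doubled limits 51.9%.

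A floor of 100 CPM left 33 genes higher and 41 lower with DAB, 10 higher and 18 lower against Car4-zero cells, and 17 and 36 against other cells. With 5 summed UMIs and no CPM floor these became 1077 and 2186, 228 and 1177, and 251 and 1578. Genes higher than in Car4-zero cells numbered 31 with doubled limits, 30 with median of ratios scaling and 9 with a mean over cells, which gave 16 against other cells.

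Among list medians of DAB over DMSO, proliferation was -1.44 with 2 Car4 UMIs per 10000, -1.79 with 5 per 10000, -1.48 as a mean over cells and -1.47 with members thinned to 2000 UMIs. The ribosomal list was -0.22 in the last of these and as a mean over cells. The median of all genes was -0.0049 as a mean over cells, -0.062 with median of ratios, 0.013 at 100 CPM, -0.098 without a floor and 0.0058 after thinning. The 5 markers had -1.75 at 100 CPM, and chitinase-like genes -1.59 as a mean over cells and -1.01 without a floor. Macrophage genes gave -0.31, monocyte genes -0.045 and iron genes -1.15 at 100 CPM. Activated dendritic genes gave -0.64 (Car4 at least 1), -1.15 (doublets removed), -0.59 (mean over cells) and -1.11 (no floor). T or NK cell genes gave -0.34 (Car4 at least 5), -0.87 (mean over cells) and -0.18 (5 per 10000), erythroid genes 0.00093 (2 per 10000), 0.48 (mean over cells) and 0.16 (no floor), and B cell genes 0.34 (5 per 10000).

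Directions of single genes were reversed for Igkv3-4 (8.96) and Prg2 (0.45) against other cells with DAB at 1 Car4 UMI, and for Cacnb3 (0.51) after thinning, where the interval was -2.62 to 4.09.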
